A study of Drosophila melanogaster with 18 samples.

Results

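Peptidoglycan recognition proteins (PGRPs) bind the peptidoglycan of bacterial cell walls, and 9 of their genes were followed in Drosophila melanogaster larvae. The genes were taken by name: the amidase genes PGRP-SB1, PGRP-SC2 and PGRP-LB, the recognition genes PGRP-SA, PGRP-SD, PGRP-LC and PGRP-LE, and PGRP-LA and PGRP-LF, which modulate the response. Of the 9, 6 had a probe set annotated to that gene alone, among 11982 genes with such a probe set, and all 6 were bright enough to be tested, among 8211 tested genes. PGRP-SA, PGRP-SD and PGRP-LC had no such probe set in the annotation used and were not analysed here. Each of the other 6 was at a log2 signal of at least 6 on 18 of 18 arrays, so the filter on low signals removed none of them.

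In flies, peptidoglycan of the type found in most Gram-negative bacteria is sensed by the membrane receptor PGRP-LC and the intracellular receptor PGRP-LE, which switch on the Imd pathway and, through the NF-kappaB factor Relish, antimicrobial peptide genes. PGRP-SA and PGRP-SD act in the blood upstream of the Toll pathway. Amidase PGRPs cut peptidoglycan, and PGRP-SC2 and PGRP-LB are known for damping the Imd response, above all in the gut, where food and resident bacteria supply peptidoglycan continuously.

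Total RNA came from whole first-instar larvae at about 48 h after egg laying, raised at 25 °C and pooled at 200 larvae per biological replicate. Wildtype had 6 arrays (replicates A to F), and each of 4 mutant genotypes had 3 (replicates A to C). HP1a mutants were HP1a04/HP1a05, double mutants were labelled HP1a04 PofD119/HP1a05 PofD119, Setdb1 mutants were homozygous for Setdb110.1, and Su(var)3-9 mutants carried Su(var)3-9evo over Su(var)3-906. HP1a is a heterochromatin protein, Setdb1 and Su(var)3-9 are histone H3 lysine 9 methyltransferases, and Pof coats the fourth chromosome. The labels do not say how much of each protein remained, and in RNA from whole larvae, fewer cells of a type and less RNA per cell cannot be told apart.

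The gene that encodes HP1a was lower in the groups carrying HP1a alleles: it read 9.48 ± 0.07 (SD, n = 3) in HP1a mutants and 9.53 ± 0.08 in double mutants, and 10.20 ± 0.05 (n = 6) in wildtype. The Pof probe set was higher in double mutants (8.32 ± 0.29) than in wildtype (7.49 ± 0.09). The sources do not say whether it lies in the deleted part, so it does not check the label, and "double mutant" below means the arrays labelled HP1a Pof. Array medians lay between 5.93 and 6.03. Correlations between arrays of a group over the tested genes ran from 0.987 to 0.997 in wildtype and from 0.962 to 0.992 in the mutant groups. RNA measures also differed by group: a control for the 3' end of 18S ribosomal RNA read 12.30 ± 0.09 in wildtype and between 9.39 and 10.10 on average in the mutant groups, and the 3'-minus-5' difference over 3 control transcripts averaged 1.67 in wildtype and, in the HP1a, double, Setdb1 and Su(var)3-9 groups in turn, 1.64, 1.5, 1.25 and 1.32. The part of these measures in the results below was not tested. All 4 comparisons with wildtype share the wildtype arrays and so are not independent of each other.

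All levels are log2 signals, and all changes are differences of group means on that scale, mutant minus wildtype, with standard errors from limma. A gene was called at a Benjamini-Hochberg adjusted p under 0.05 over all tested genes. In every mutant group the amidase genes and PGRP-LE lay below wildtype on average, while no call was made for PGRP-LA or PGRP-LF. Over the 24 changes of a gene against wildtype, 15 were called lower and 0 higher. The amidase genes gave 11 calls in 12 changes, and the other genes 4 in 12, all of them PGRP-LE. Of the 11, that of PGRP-SB1 in double mutants was lost when arrays were blocked by letter (adjusted p = 0.181), which left 3 called genes in that group. Many other genes were also lower in these larvae: 35.6%, 35.8%, 35.2% and 47.6% of tested genes were called lower in HP1a, double, Setdb1 and Su(var)3-9 mutants, beside 4, 4, 4 and 3 of the 6 PGRP genes. The shares of tested genes called higher were 23.5%, 25%, 17.3% and 16.3% in the same order.

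**Figure D1:**
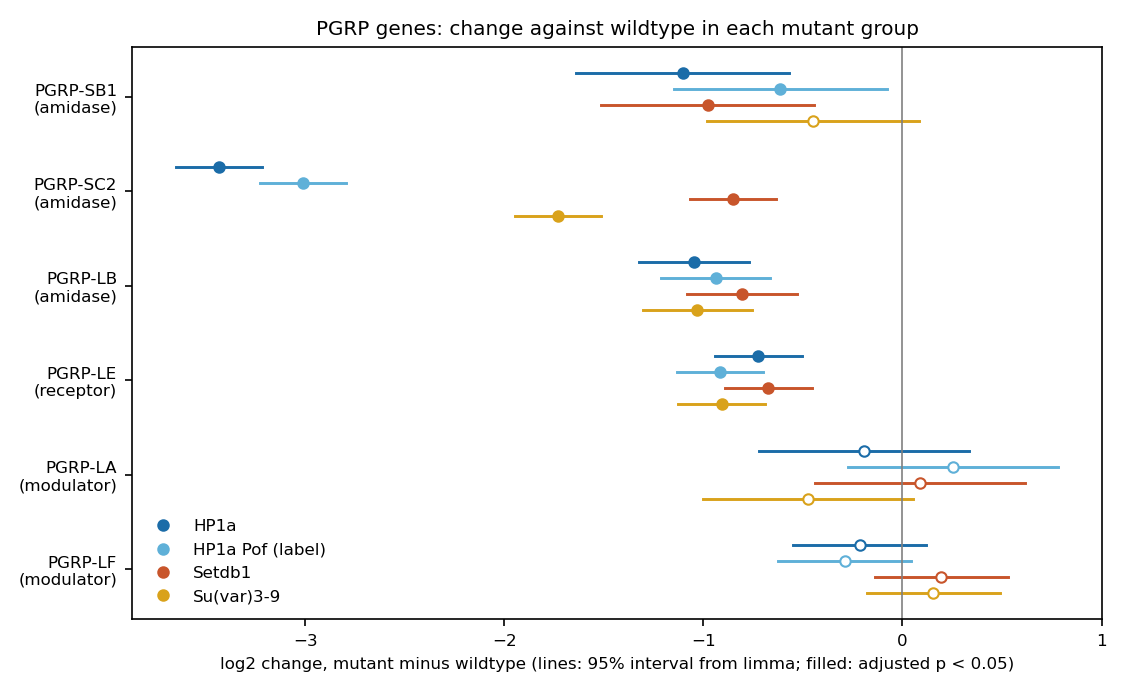
Change of each PGRP gene against wildtype (x axis, difference of mean log2 signals) in the 4 mutant groups; lines are 95% intervals from limma, and filled points have an adjusted p under 0.05. PGRP-SC2 spreads from -3.43 in HP1a mutants to -0.85 in Setdb1 mutants, PGRP-LB and PGRP-LE stay between -1.05 and -0.67, and the intervals of PGRP-LA and PGRP-LF include 0 in all groups.

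PGRP-SC2, on chromosome arm 2R, changed more than the other tested PGRP genes in HP1a, double and Su(var)3-9 mutants. A probe set shared by 2 neighbouring PGRP-SC genes entered no test. It read 13.47 in wildtype and 9.40, 9.65 and 10.09 in HP1a, double and Setdb1 mutants, a larger fall than that of PGRP-SC2. In Su(var)3-9 mutants (12.13) its fall was smaller than that of PGRP-SC2. In wildtype the log2 signal of PGRP-SC2 ran from 12.49 to 12.70 with a median of 12.61. The HP1a mutant arrays read 9.24, 9.25 and 9.02, and double mutants read 9.92, 9.52 and 9.34. Su(var)3-9 mutants read 10.93, 10.94 and 10.75, and Setdb1 mutants 11.79, 11.83 and 11.64. All 12 mutant arrays lay below all wildtype arrays, and the 5 groups did not overlap each other at any point. Lying wholly below wildtype was common, at 33.7%, 36.6%, 33.8% and 42.8% of tested genes in HP1a, double, Setdb1 and Su(var)3-9 mutants, and few genes fell as far in the HP1a groups. In HP1a mutants PGRP-SC2 fell by 3.43 ± 0.10 (10.8-fold lower, adjusted p = 4.01e-13), and 7 of the tested genes, or 0.0853%, fell further. In double mutants it fell by 3.01 ± 0.10 (8.06-fold lower, adjusted p = 1.95e-12), with 26 genes, or 0.317%, falling further. The change was smaller in Su(var)3-9 mutants, where the gene fell by 1.73 ± 0.10 (3.32-fold lower, adjusted p = 2.45e-09) and 1.6% of genes fell further. It was smallest in Setdb1 mutants, where the gene fell by 0.85 ± 0.10 (1.80-fold lower, adjusted p = 5.85e-06) and 6.25% of genes fell further.

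**Figure D2:**
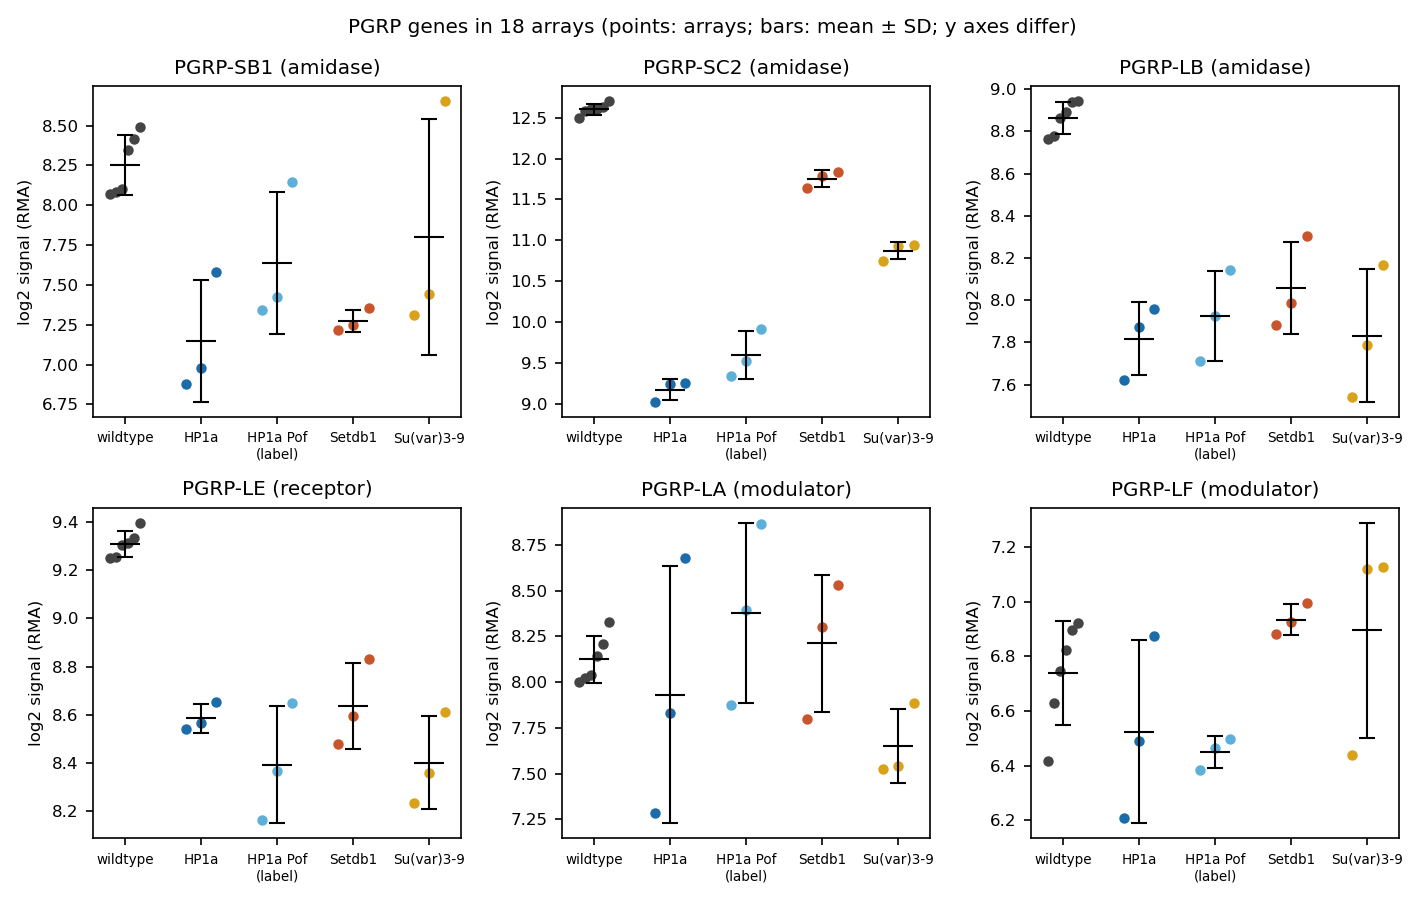
Log2 signal of the 6 measured PGRP genes (y axes, differing in range) in each of the 18 arrays by group; points are arrays and bars the mean ± SD. All 12 mutant arrays sit below all 6 wildtype arrays for PGRP-SC2, PGRP-LB and PGRP-LE, and the groups form separate steps only for PGRP-SC2.

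The levels of PGRP-SC2 fell in the order wildtype, Setdb1, Su(var)3-9, double mutant, HP1a. Setdb1 mutants exceeded Su(var)3-9 mutants by 0.88 ± 0.12 (adjusted p = 5.87e-05), in a comparison where 27.5% of tested genes were called. The double mutants lay below Su(var)3-9 mutants (-1.28 ± 0.12, adjusted p = 1.14e-06, with 47.6% of genes called) and below Setdb1 mutants (-2.16 ± 0.12, adjusted p = 2.05e-09, with 27% called). HP1a mutants lay below Su(var)3-9 mutants (-1.70 ± 0.12, adjusted p = 5.65e-08, with 40.1% called) and below Setdb1 mutants (-2.58 ± 0.12, adjusted p = 2.19e-10, with 18.5% called). In the last of these comparisons 5 tested genes, or 0.0609%, were lower by more. Arrays of these pairs did not overlap, as for 32.2%, 52.2%, 42.4%, 39.2% and 30.9% of genes in the same order. The lowest pair in the order was not separated by the test. Double mutant arrays exceeded HP1a mutant arrays by 0.42 ± 0.12 (95% interval 0.17 to 0.67, adjusted p = 0.184), without overlap, where 11.1% of genes did not overlap and 0.731% were called. This difference passed the test in 2 of 15 alternatives. They were leaving out double mutant array C (0.55, adjusted p = 0.0468) and weighting arrays by their reliability (0.55, adjusted p = 0.0232). Leaving out other single arrays gave values down to 0.26, and adjusted p over the alternatives reached 0.731.

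PGRP-LB, on 3R, encodes an amidase with secreted and intracellular forms. Wildtype arrays ran from 8.77 to 8.94 with a median of 8.88. HP1a mutants read 7.96, 7.62 and 7.87, double mutants 8.14, 7.71 and 7.92, Setdb1 mutants 8.30, 7.88 and 7.99, and Su(var)3-9 mutants 7.79, 8.17 and 7.54. Every mutant array was below every wildtype array, and the mutant groups overlapped each other. The gene fell by 1.05 ± 0.13 in HP1a mutants (adjusted p = 4.77e-06), 0.94 ± 0.13 in double mutants (adjusted p = 1.28e-05), 0.81 ± 0.13 in Setdb1 mutants (adjusted p = 9.25e-05) and 1.03 ± 0.13 in Su(var)3-9 mutants (adjusted p = 5.31e-06). Between mutant groups the differences of PGRP-LB ran from -0.24 to 0.23, none was called, and their 95% intervals reached from -0.56 to 0.54. A difference between mutants of the size seen for PGRP-SC2 between HP1a and Setdb1 mutants lies outside those intervals.

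PGRP-SB1, on 3L, encodes a secreted amidase and varied widely between replicates. Wildtype ran from 8.07 to 8.49 with a median of 8.22, and Setdb1 mutants read 7.22, 7.35 and 7.25. HP1a mutants read 7.58, 6.98 and 6.88, and double mutants 8.15, 7.42 and 7.34. Su(var)3-9 mutants read 7.31, 8.65 and 7.44, so that array B was above all wildtype arrays and arrays A and C were below them. HP1a and Setdb1 mutants did not overlap wildtype, whereas double mutant array A lay within its range. The gene fell by 1.10 ± 0.25 in HP1a mutants (adjusted p = 0.00136) and 0.98 ± 0.25 in Setdb1 mutants (adjusted p = 0.00411). In double mutants it fell by 0.61 ± 0.25 (adjusted p = 0.045). That call was lost in 11 of 19 alternatives (adjusted p between 0.0503 and 0.189). They were the block by replicate letter (-0.53, adjusted p = 0.181), wildtype arrays A to C alone (-0.53), centring (-0.53), quantile normalization (-0.55), no filter, and leaving out wildtype array C, D, E or F or double mutant array B or C. In Su(var)3-9 mutants the change was -0.45 ± 0.25 (adjusted p = 0.129). It was -0.88 (adjusted p = 0.00196) without array B and 0.26 (adjusted p = 0.226) with arrays weighted by their reliability.

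PGRP-LE, on X, was the only recognition gene with a probe set of its own. Wildtype arrays lay between 9.25 and 9.40 with a median of 9.31. HP1a mutants read 8.65, 8.54 and 8.56, double mutants 8.65, 8.16 and 8.37, Setdb1 mutants 8.83, 8.60 and 8.48, and Su(var)3-9 mutants 8.36, 8.61 and 8.23. As for PGRP-LB, all 12 mutant arrays were below all wildtype arrays and the mutant groups overlapped each other. PGRP-LE fell by 0.72 ± 0.10 in HP1a mutants (adjusted p = 1.89e-05), 0.92 ± 0.10 in double mutants (adjusted p = 1.34e-06), 0.67 ± 0.10 in Setdb1 mutants (adjusted p = 5.71e-05) and 0.91 ± 0.10 in Su(var)3-9 mutants (adjusted p = 1.82e-06). In HP1a mutants 12.4% of tested genes fell further and in the other groups between 9.18% and 10.2%. Differences of PGRP-LE between mutant groups ran from -0.24 to 0.23 with 95% intervals from -0.49 to 0.49, and none was called.

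PGRP-LA and PGRP-LF lie on either side of PGRP-LC on 3L, so the 3 genes are consecutive in the reference annotation. PGRP-LA is known to modulate Imd signalling in epithelia such as the airways. In wildtype it ran from 8.0 to 8.33 with a median of 8.09, and it scattered widely in the mutants. HP1a mutants read 7.28, 8.68 and 7.83, double mutants 7.88, 8.39 and 8.87, Setdb1 mutants 8.30, 8.53 and 7.80, and Su(var)3-9 mutants 7.53, 7.89 and 7.54. Of the 12 mutant arrays, 7 were below and 4 above all wildtype arrays, and the Su(var)3-9 mutants were all below. The changes were -0.19, 0.25, 0.09 and -0.47 in HP1a, double, Setdb1 and Su(var)3-9 mutants, each ± 0.25, with adjusted p of 0.524, 0.39, 0.787 and 0.107. Their 95% intervals together reached from -1.0 to 0.78. A change was called in HP1a mutants without array B (-0.57, adjusted p = 0.0442) and in Su(var)3-9 mutants when their arrays and wildtype were fitted alone (-0.47, adjusted p = 0.00235). PGRP-LA was higher by 0.73 ± 0.29 in double mutants than in Su(var)3-9 mutants (adjusted p = 0.0475), the single call among 30 differences of genes other than PGRP-SC2 between mutant groups, beside 47.6% of tested genes called in that comparison and between 0.731% and 47.6% over the 6 comparisons. That call was lost in 10 of 16 alternatives (adjusted p between 0.0515 and 0.216). They included centring (0.59, adjusted p = 0.103), quantile normalization (0.59, adjusted p = 0.102), array weights (0.43, adjusted p = 0.0872), no filter, fitting only the groups compared, and leaving out double mutant array B or C or Su(var)3-9 array A or C. When the arrays were centred, the calls among these 30 differences were instead PGRP-LF in HP1a and in double mutants against Su(var)3-9 mutants, and PGRP-SB1 in HP1a against Su(var)3-9 mutants (-0.81, adjusted p = 0.0352).

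PGRP-LF encodes a membrane protein that restrains PGRP-LC. Wildtype arrays ran from 6.42 to 6.92 with a median of 6.79. HP1a mutants read 6.87, 6.49 and 6.21, double mutants 6.5, 6.39 and 6.47, Setdb1 mutants 6.92, 7.0 and 6.88, and Su(var)3-9 mutants 6.44, 7.13 and 7.12. Each mutant group overlapped wildtype. The changes were -0.22 and -0.29 in HP1a and double mutants and 0.19 and 0.16 in Setdb1 and Su(var)3-9 mutants, each ± 0.16, with adjusted p of 0.25, 0.121, 0.314 and 0.398 and 95% intervals that together reached from -0.62 to 0.53. Between the mutant groups, HP1a and double mutants were lower than Setdb1 and Su(var)3-9 mutants by values from -0.48 to -0.37, with adjusted p between 0.0536 and 0.124. Several alternatives called such differences. HP1a mutants were lower than Su(var)3-9 mutants when centred (-0.52, adjusted p = 0.0408), with quantile normalization (-0.49, adjusted p = 0.0458) and with array weights (-0.71, adjusted p = 0.00185). Double mutants were also lower than Su(var)3-9 mutants when centred (-0.59, adjusted p = 0.0198), with quantile normalization (-0.56, adjusted p = 0.0219) and with array weights (-0.63, adjusted p = 0.00145). They were lower than Setdb1 mutants with quantile normalization (-0.52, adjusted p = 0.0426) and when only those groups were fitted (-0.48, adjusted p = 0.0139). Against wildtype, array weights called PGRP-LF lower in HP1a mutants (-0.40) and double mutants (-0.32) and higher in Su(var)3-9 mutants (0.31), and the fit of double mutants and wildtype alone called it lower (-0.29, adjusted p = 0.0317). Without Su(var)3-9 array A the gene was higher in Su(var)3-9 mutants than in wildtype (0.38, adjusted p = 0.0308), and lower than in Su(var)3-9 mutants both in HP1a mutants (-0.60, adjusted p = 0.00752) and in double mutants (-0.67, adjusted p = 0.00308). The difference between HP1a and Su(var)3-9 mutants also passed without HP1a array A (-0.55, adjusted p = 0.0351).

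Side by side, the median change of the amidase genes was -1.10, -0.94, -0.85 and -1.03 in HP1a, double, Setdb1 and Su(var)3-9 mutants, and that of the other genes was -0.22, -0.29, 0.09 and -0.47. The same median over all tested genes was -0.06, -0.05, -0.11 and -0.22. The median of the other genes was the value of PGRP-LF in HP1a and double mutants and of PGRP-LA in Setdb1 and Su(var)3-9 mutants. PGRP-LE, the only receptor gene measured, changed by -0.72, -0.92, -0.67 and -0.91, and the amidase gene PGRP-LB by -1.05, -0.94, -0.81 and -1.03. The medians thus do not compare amidases with receptors. With each array centred on the median of its tested genes, PGRP-SC2 changed by -3.36, -2.93, -0.74 and -1.51 in that order, PGRP-LB by between -0.98 and -0.69, and PGRP-LE by between -0.84 and -0.56, and the calls for these genes were the same.

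Most marker genes of the larval midgut, nearly all of them digestive enzymes, were lower in the same arrays as the PGRP genes. Of 22 marker genes, 17 had a probe set of their own and all 17 were tested. In HP1a mutants 2 were called higher and 15 lower, in double mutants 2 and 15, in Setdb1 mutants 2 and 12, and in Su(var)3-9 mutants 1 and 15. Of all tested genes, 23.5%, 25%, 17.3% and 16.3% were called higher and 35.6%, 35.8%, 35.2% and 47.6% lower in the same order. The median changes of the midgut markers were -1.76, -1.61, -0.84 and -0.95. The mean level of the 17 genes ran from 11.27 to 11.43 in wildtype, 10.09 to 10.16 in HP1a mutants, 9.94 to 10.18 in double mutants, 10.06 to 10.71 in Setdb1 mutants and 10.16 to 10.69 in Su(var)3-9 mutants. Setdb1 and Su(var)3-9 mutants thus overlapped in the midgut level, while their PGRP-SC2 levels did not overlap. The part of the midgut signal in the PGRP changes was not tested.

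**Figure D3:**
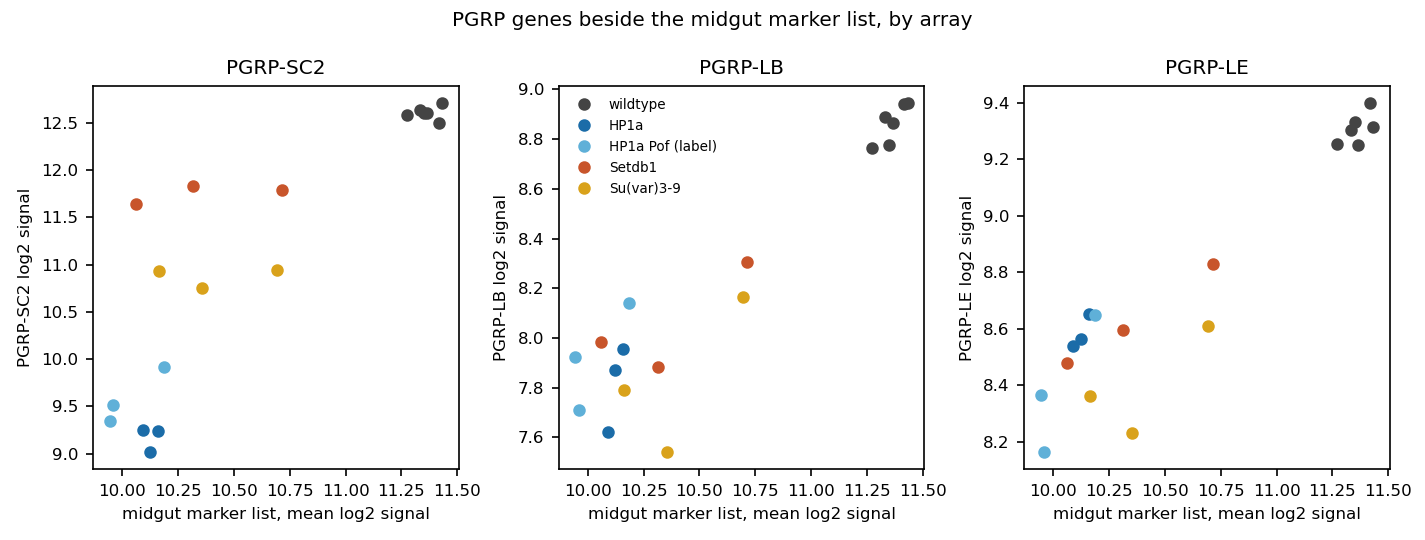
Log2 signal of PGRP-SC2, PGRP-LB and PGRP-LE (y axes) against the mean log2 signal of the 17 midgut marker genes (x axis), with 1 point per array and colours for the groups. Wildtype arrays lie at the upper right in each panel, and the groups of mutant arrays separate along the y axis for PGRP-SC2 but not for the other genes.

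Other cell types moved less uniformly. Of 9 tested neuron markers, 4 were called higher and 0 lower in HP1a mutants, 7 and 0 in double mutants, 2 and 2 in Setdb1 mutants, and 2 and 3 in Su(var)3-9 mutants. Of all tested genes, 23.5%, 25%, 17.3% and 16.3% were called higher and 35.6%, 35.8%, 35.2% and 47.6% lower in the same order. These shares also belong beside the counts of the other cell types below. One of the 9 neuron markers, VGlut, was below the filter on all wildtype arrays (mean 4.78) and entered the test through HP1a and double mutant arrays. Its rise in those groups is no independent result. The neuron counts in HP1a and double mutants therefore cannot be read against the shares of tested genes. The mean neuron level ran from 7.65 to 7.83 in wildtype, 8.07 to 8.53 in HP1a mutants, 8.40 to 8.67 in double mutants, 7.56 to 8.09 in Setdb1 mutants and 7.26 to 7.93 in Su(var)3-9 mutants. Of 10 tested haemocyte markers, 3 were called higher and 6 lower in HP1a mutants, 2 and 5 in double mutants, 4 and 6 in Setdb1 mutants, and 3 and 5 in Su(var)3-9 mutants. The mean level of the 12 haemocyte markers with a probe set ran from 8.66 to 8.78 in wildtype and from 8.33 to 8.62 over the mutant arrays, and NimC4 never reached the filter. The mean level of the 7 fat body markers with a probe set ran from 8.69 to 8.92 on all arrays but 1, and was 10.60 on Su(var)3-9 array C; Fbp1 never reached the filter. In each mutant group 2 of the 4 tested ones were called higher and 1 lower. Of 7 tested muscle markers, 1, 1, 1 and 3 were called higher and 3, 0, 0 and 1 lower in HP1a, double, Setdb1 and Su(var)3-9 mutants, with mean levels from 11.69 to 12.23 over all arrays. Yolk and eggshell genes, which larvae should lack, had 3 tested members of 10 with a probe set, and a mean level over those 10 from 5.17 to 5.58. The part of any of these lists in the PGRP changes was not tested.

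Genes that act downstream of PGRP-LC and PGRP-LE had lower medians in every group, by less than PGRP-LE. Of 11 tested Imd signalling genes, 8 were called lower in HP1a, double and Setdb1 mutants alike and 9 in Su(var)3-9 mutants, and 0 were called higher in any group. Of all tested genes, 35.6%, 35.8%, 35.2% and 47.6% were called lower in HP1a, double, Setdb1 and Su(var)3-9 mutants. The median changes of the Imd signalling genes were -0.37, -0.35, -0.34 and -0.44, beside -0.06, -0.05, -0.11 and -0.22 over all tested genes. The largest falls were those of Tab2, an adaptor of the kinase Tak1, in HP1a mutants (-0.61 ± 0.09, adjusted p = 3.67e-05), of key, the regulatory subunit of the IkappaB kinase, in double mutants (-0.74 ± 0.07, adjusted p = 4.06e-07), and of Fadd, the adaptor of the caspase Dredd, in Setdb1 mutants (-0.54 ± 0.12, adjusted p = 0.00115) and Su(var)3-9 mutants (-0.65 ± 0.12, adjusted p = 0.000165). Rel, which encodes the pathway's transcription factor Relish, was not called in any group, with changes between -0.06 and 0.06.

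**Figure D4:**
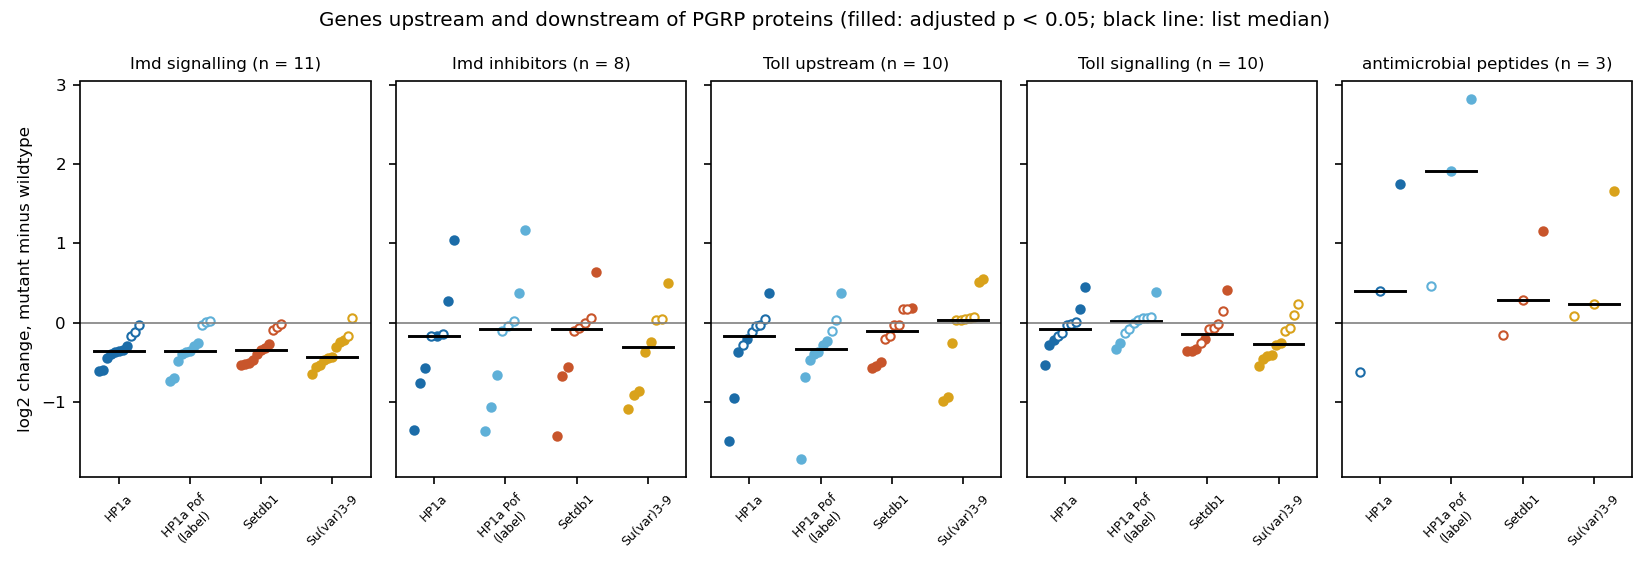
Change against wildtype (y axis, difference of mean log2 signals) of the tested genes in 5 lists around PGRP function, by mutant group; filled points have an adjusted p under 0.05, and black lines are list medians. The Imd signalling medians lie between -0.44 and -0.34. Those of the Imd inhibitors also lie below 0, and those of each Toll list on both sides of 0. The medians of the 3 antimicrobial peptide genes lie above 0. These genes include Drs, which was tested through mutant groups, so the sign of the medians is no independent result.

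Inhibitors of the Imd pathway moved both ways. Of 8 tested, 2, 2, 1 and 1 were called higher and 4, 3, 3 and 5 lower in HP1a, double, Setdb1 and Su(var)3-9 mutants. In the same order, 23.5%, 25%, 17.3% and 16.3% of all tested genes were called higher and 35.6%, 35.8%, 35.2% and 47.6% lower. The cytoplasmic inhibitor pirk, which acts on PGRP-LC and PGRP-LE, had the largest falls in HP1a mutants (-1.37 ± 0.17, adjusted p = 5.12e-06), double mutants (-1.37 ± 0.17, adjusted p = 4.15e-06) and Setdb1 mutants (-1.43 ± 0.17, adjusted p = 5.31e-06). In Su(var)3-9 mutants the largest fall was that of nub, a repressor of antimicrobial peptide genes (-1.10 ± 0.14, adjusted p = 7.12e-06). The ubiquitin protease gene scny rose in every group, by 1.04 ± 0.09 in HP1a mutants (adjusted p = 1.06e-07), 1.17 ± 0.09 in double mutants (adjusted p = 2.36e-08), 0.65 ± 0.09 in Setdb1 mutants (adjusted p = 2.62e-05) and 0.49 ± 0.09 in Su(var)3-9 mutants (adjusted p = 0.000191). Its direction was thus opposite to that of pirk, which was also called lower in Su(var)3-9 mutants (-0.86).

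On the Toll side, of 10 tested genes upstream of the receptor, 1, 1, 1 and 2 were called higher and 4, 7, 3 and 3 lower in the same order, with medians of -0.17, -0.33, -0.11 and 0.04. The shares of all tested genes were 23.5%, 25%, 17.3% and 16.3% called higher and 35.6%, 35.8%, 35.2% and 47.6% called lower. The serine protease homologue gene sphe had the largest falls in HP1a mutants (-1.49 ± 0.16, adjusted p = 9.98e-07), double mutants (-1.73 ± 0.16, adjusted p = 1.66e-07) and Su(var)3-9 mutants (-0.99 ± 0.16, adjusted p = 6.27e-05), and SPE, which encodes the protease that activates Spätzle, had it in Setdb1 mutants (-0.57 ± 0.16, adjusted p = 0.0057). The largest rises were small: Hayan, a serine protease gene, by 0.37 ± 0.11 in HP1a mutants (adjusted p = 0.00987) and 0.38 ± 0.11 in double mutants (adjusted p = 0.00874), and GNBP2 by 0.19 ± 0.07 in Setdb1 mutants (adjusted p = 0.0424). In Su(var)3-9 mutants the called gene with the largest rise was the serine protease gene psh. Its 3 Su(var)3-9 arrays read from 6.02 to 6.33, and it stayed below the filter on all other arrays (mean 5.58 in wildtype), so it was tested through the group where it was high and its call is no independent result. As psh is 1 of the 2 genes called higher there, that count cannot be read against the share of tested genes. It is also 1 of the 7 called lower in double mutants, where its mean was 5.29 and both groups were below the filter. Of 10 tested Toll signalling genes, 2, 1, 1 and 0 were called higher and 3, 2, 4 and 6 lower, beside the shares of all tested genes given above. The NF-kappaB gene dl had the largest rise in HP1a mutants (0.44 ± 0.14, adjusted p = 0.0112), double mutants (0.39 ± 0.14, adjusted p = 0.0217) and Setdb1 mutants (0.41 ± 0.14, adjusted p = 0.0191). The kinase gene pll had the largest fall in HP1a mutants (-0.54 ± 0.11, adjusted p = 0.000424), double mutants (-0.34 ± 0.11, adjusted p = 0.012) and Su(var)3-9 mutants (-0.54 ± 0.11, adjusted p = 0.000376), and the receptor gene Tl had it in Setdb1 mutants (-0.36 ± 0.12, adjusted p = 0.0187). Dif, the other NF-kappaB gene of the list, never reached the filter.

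Few antimicrobial peptide genes, the outputs of both pathways, could be measured. Of 14, 6 had a probe set of their own and 3 were tested, and CecB and Def never reached the filter. Of the 3, 1 was called higher in HP1a, Setdb1 and Su(var)3-9 mutants and 2 in double mutants, and 0 were called lower, beside 23.5%, 25%, 17.3% and 16.3% of tested genes called higher in HP1a, double, Setdb1 and Su(var)3-9 mutants. Drs, which encodes the antifungal peptide Drosomycin, was the called gene with the largest rise in all groups but Setdb1 mutants. Its wildtype arrays read from 5.36 to 6.10, and 1 of 6 reached the filter, so it was tested through the mutant groups and its wildtype value lies near the level of genes that larvae should lack. Its calls are thus no independent result. They are the only ones in HP1a and Su(var)3-9 mutants and 1 of the 2 in double mutants. The counts in those groups therefore cannot be read against the shares of tested genes. Drs read from 6.60 to 8.73 in HP1a mutants, 7.80 to 9.23 in double mutants, 5.92 to 6.07 in Setdb1 mutants and 7.23 to 7.54 in Su(var)3-9 mutants. All HP1a, double and Su(var)3-9 mutant arrays lay above all wildtype arrays, and the difference from so dim a wildtype signal is given as levels only. In Setdb1 mutants the called gene was Mtk, for the peptide Metchnikowin (1.16 ± 0.29, adjusted p = 0.00302). Mtk was also the other called gene in double mutants, where it rose further (1.91 ± 0.29, adjusted p = 2.82e-05). It was not called in HP1a mutants (0.40) or Su(var)3-9 mutants (0.09).

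The genes most like PGRP-SC2 over the 18 arrays were CG11893, Cht9 and CG40160, with Pearson correlations of 0.99, 0.97 and 0.97. Cht9 encodes a chitinase. These correlations are descriptions over arrays that share their group and their array-wide properties, and after removal of the group means they were 0.45, 0.16 and 0.29. CG11893 changed by -4.75, -3.96, -1.06 and -2.27 in HP1a, double, Setdb1 and Su(var)3-9 mutants, Cht9 by -3.14, -2.70, -1.0 and -1.72, and CG40160 by -2.61, -2.55, -0.80 and -1.79. Since the genes were picked by correlation over arrays of all groups, their likeness in group order was fixed by that choice. For PGRP-LE the most alike were PIG-Wb (0.98), speck (0.97) and GATAe (0.97), of which GATAe encodes a transcription factor of the endoderm. Here the correlations after removal of group means were 0.74, 0.73 and 0.76. PIG-Wb changed by -1.60, -1.86, -1.48 and -2.0 in HP1a, double, Setdb1 and Su(var)3-9 mutants. In the same order speck changed by -1.24, -1.33, -1.0 and -1.42, and GATAe by -1.09, -1.16, -0.89 and -1.37. Here too the likeness in group order was fixed by the choice of genes.

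No tested gene outside the family and near a PGRP gene changed by as much as PGRP-SC2 did in the same comparison. Within 3 protein-coding genes on either side of the 6 measured genes, 16 genes outside the family were tested. Of these, 2 were called higher and 6 lower in HP1a mutants, 2 and 4 in double mutants, 2 and 4 in Setdb1 mutants, and 3 and 9 in Su(var)3-9 mutants, with medians of -0.15, -0.04, 0.08 and -0.30. Over all tested genes the shares were 23.5%, 25%, 17.3% and 16.3% called higher and 35.6%, 35.8%, 35.2% and 47.6% called lower. CG14767, the gene next to PGRP-SC2 on the side away from the other PGRP-SC genes, changed by -0.14 (adjusted p = 0.2), 0.02 (0.886), 0.10 (0.369) and -0.30 (0.00928) in HP1a, double, Setdb1 and Su(var)3-9 mutants. Farther on the same side, gcl changed by -0.35 (adjusted p = 0.0225), -0.23 (0.115), 0.06 (0.714) and -0.39 (0.0117). The PGRP-SC genes on the other side share a probe set, so neither was tested. The mean of that probe set was 13.47 in wildtype and 9.40, 9.65, 10.09 and 12.13 in HP1a, double, Setdb1 and Su(var)3-9 mutants. The part of chromosome position in these changes was not tested.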

How the data were processed

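The deposited values are log2 signals of one-colour Affymetrix arrays, made with RMA per the submitters' processing notes; the version is not given in those sources. RMA compresses differences between dim probe sets. Each of 18 arrays held 18952 probe sets, and 13647 were annotated to 1 gene, 402 to several. The gene identifiers of 13544 were found in a RefSeq table of Release 6, which gave names, chromosome arms and neighbours. For 1094 genes with several probe sets the one with the highest mean was kept. Genes at log2 6 or more on at least 3 arrays were tested.

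Changes came from limma 3.58.1 (R 4.3.3), fitted as 1 model over the 5 groups with 13 residual degrees of freedom, moderated variances and Benjamini-Hochberg adjustment over all tested genes. The procedure was tested on simulated data. The members, gene lists, comparisons and alternatives were chosen with earlier results of these data known. By rule the text names all members, and from each pathway list and comparison with wildtype the called gene with the largest rise and the largest fall. For PGRP-SC2 and PGRP-LE, each the widest in its class in group means, it names the 3 genes with the highest correlation. Rel, Mtk outside Setdb1 mutants, the immediate neighbours of PGRP-SC2 and genes that never reached the filter are named outside that rule, with their values known.

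The labels give replicate letters without saying what they share. Same-letter residual correlations all exceeded 0.1 for HP1a mutants (0.204 to 0.442), double mutants (0.133 to 0.197) and Setdb1 mutants (0.198 to 0.405) against wildtype, and among these mutant groups, but not in comparisons with Su(var)3-9 mutants. Correlations between arrays of different letters were not computed, so these values cannot tell pairing by letter from likeness shared by all arrays. The letter entered as a block in an alternative only, which leaves out wildtype arrays D to F. Probe sets annotated to several genes entered no test. Levels of a single one are given with PGRP-SC2, beside its neighbours and under the other observations. The genes targeted in Setdb1 and Su(var)3-9 mutants were not analysed here.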

Additional observations from a re-analysis of the deposited data

Results flagged for a closer look

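The mean log2 level of the neuron marker list was 7.83 on wildtype array A and between 7.65 and 7.71 on the other 5 wildtype arrays. The gap of array A to its nearest neighbour was 0.702 of the whole range, above Dixon's 95% critical value for 6 arrays. This was the single such case among 17 sets of wildtype values checked, which covered the PGRP genes and the lists, and chance gives about 1 in 20.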

How the results depend on the processing

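Of 458 recomputed changes of PGRP genes against wildtype, 434 kept their direction and their side of the threshold, 11 lost the call (all PGRP-SB1 in double mutants), 9 gained one and 4 changed sign. The calls of PGRP-SC2, PGRP-LB and PGRP-LE against wildtype held in every alternative run. Between mutant groups 492 of 552 kept both, and the 29 that changed sign were all uncalled. The cause of these changes was not tested. The filter at log2 8 left PGRP-LF out and gave it no value. Apart from PGRP-SB1 in double mutants against wildtype (-0.53), the replicate block changed no PGRP call. With 3 arrays per mutant group precision is limited, and PGRP-LF lies close to the filter.

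Ranges below are over leaving out single arrays. Against wildtype, PGRP-LF in Su(var)3-9 mutants was -0.30 with array A alone, an alternative chosen after seeing the data in which the lone array is assumed to vary like the other groups, and PGRP-SB1 was 0.26 with array weights. PGRP-LA ranged from -0.57 to 0.13 in HP1a mutants and from -0.073 to 0.29 in Setdb1 mutants. The median of the other PGRP genes in Su(var)3-9 mutants was -0.25 centred, -0.28 with quantile normalization and -0.30 with array weights, and that of the amidases in HP1a mutants ranged from -1.32 to -1.02.

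For HP1a against Su(var)3-9 mutants, 3 genes were called when centred, with quantile normalization and with array weights (range 1 to 3), and the amidase median was -1.48 with array weights and -0.16 with array A alone. With array A alone PGRP-LB was 0.028 and PGRP-LF 0.084, and PGRP-LB ranged from -0.16 to 0.15 and PGRP-LA from -0.093 to 0.61. For double against Su(var)3-9 mutants, 1 gene was called without a filter, with only the groups compared and with array A alone (range 1 to 2), and the amidase median was -0.79 with array weights. PGRP-LB was -0.048 centred, -0.051 with quantile normalization and -0.18 with array weights (range -0.052 to 0.26). With array A alone PGRP-LE was 0.032, PGRP-LF 0.0098 and PGRP-SB1 0.33 (ranges for PGRP-LE -0.14 to 0.11, for PGRP-SB1 -0.42 to 0.26). For Setdb1 against Su(var)3-9 mutants, array weights called 2 genes and gave -0.056 for PGRP-LB, and PGRP-LF was -0.073 centred, -0.037 with quantile normalization and -0.14 with array weights (range -0.19 to 0.16). For double against HP1a mutants, array weights called 1 gene (range 0 to 1) and gave 0.081 for PGRP-LF (range -0.23 to 0.10). For double against Setdb1 mutants, 2 genes were called with quantile normalization and with only the groups compared (range 1 to 2), and PGRP-LA ranged from -0.077 to 0.42. For HP1a against Setdb1 mutants, PGRP-LA ranged from -0.65 to 0.045, PGRP-LE from -0.13 to 0.047 and PGRP-SB1 from -0.35 to 0.0072. PGRP-LE was lower in double than in Setdb1 mutants without double array A (-0.37, adjusted p = 0.0375), and PGRP-SB1 was lower in HP1a than in Su(var)3-9 mutants without HP1a array A (-0.87, adjusted p = 0.0438) or Su(var)3-9 array A (-0.90, adjusted p = 0.0243).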

Other observations

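A probe set annotated to a pair of PGRP-SC amidase genes beside PGRP-SC2, and so not assigned to either, read 13.47 ± 0.16 (SD, n = 6) in wildtype, 12.13 ± 0.61 (n = 3) in Su(var)3-9 mutants, 10.09 ± 0.56 in Setdb1 mutants, 9.65 ± 0.24 in double mutants and 9.40 ± 0.20 in HP1a mutants. Its order of groups differed from that of PGRP-SC2, since Su(var)3-9 mutants (11.44 to 12.61) lay above Setdb1 mutants (9.70 to 10.73) here and below them for PGRP-SC2. The 2 levels come from different probes and were not tested against each other. PGRP-SB2, next to PGRP-SB1, stayed below the filter on all arrays, with group means between 5.35 and 5.77.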
